A study of Arabidopsis thaliana with 6 samples.

Results

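Expansins are wall proteins that let the polymers of the plant cell wall slip past each other, which loosens the wall without cutting its polysaccharides. EXPA4, EXLA1 and EXLA2 are 3 Arabidopsis genes of this superfamily, and each has 1 probe set on the array that the platform table assigns to that gene and no other. They are 3 of 13356 genes with such a probe set in the series, and 15 further expansins have one. The 3 were chosen by their measured differences between isoxaben and control cultures, so those differences are given below as a description with no test.

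The superfamily has 4 families. Alpha-expansins (EXPA) bind at contacts between cellulose and xyloglucan and act best at acidic wall pH, which plants reach by pumping protons into the wall. Beta-expansins (EXPB) include the grass pollen allergens that loosen the walls of the stigma. The expansin-like families A (EXLA) and B (EXLB) were recognised by sequence, and wall-loosening activity has not been established for them as it has for alpha-expansins. EXLA2 is known from Arabidopsis mutants that were altered in their response to a necrotrophic fungus.

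The groups were 3 arrays of suspension cultures labelled with 0.1 mM isoxaben, a herbicide that blocks cellulose synthesis, and 3 arrays of control cultures whose labels give no treatment. All 6 cultures shared Murashige and Skooge medium (the labels' spelling) with sucrose, the cytokinin Kinetin and a synthetic auxin that the labels spell Napthalene acetic acid. The labels name no ecotype or line and no length of treatment, and they do not say that replicates were separate cultures, so the spread between arrays may be technical. Array titles fall into 2 sets, the first with 1 array of each group and the second with 2 of each. Each value is a scaled signal intensity, a linear measure of hybridised RNA, and differences are on the log2(signal + 16) scale unless a ratio is named.

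A pair of arrays needs a remark before the values. The source name of isoxaben replicate 1 carries the code DCB, whereas isoxaben is named in its title and in its treatment label. The differences of EXPA4, EXLA1, EXLA2 and of each relative described singly with a test are therefore given with and without that array. The overlap shares, the profile comparisons and the differences in the first title set below include it. Control replicate 1 had 7023 outlier cells per its label, against 160 to 613 on the other arrays, and the lowest mean background (67.11, against 84.53 to 113.18). Arrays of 1 group correlated at 0.956 to 0.992 over the 13648 probe sets tested, and arrays of different groups at 0.745 to 0.773. Of the 22 markers listed for root hairs, xylem, guard cells and phloem, 3 had a probe set named here (EXPA7, EXPA18 and the guard cell factor FAMA), and none of the 3 passed the filter on dim probe sets. FAMA had signals of 15.8 to 23.1 on isoxaben arrays and 10.5 to 42.1 on control arrays. In RNA from whole cultures, a lower signal from fewer cells of a kind and one from less RNA per cell cannot be told apart.

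EXPA4 (AT2G39700), an alpha-expansin, was higher on every isoxaben array. Its signal was 376.8, 318.2 and 218.0 on isoxaben arrays 1 to 3, against 54.3, 38.2 and 40.9 on control arrays 1 to 3. The groups were far apart, since the lowest isoxaben signal was 4.01 times the highest control signal. The means were 304 ± 80.3 in isoxaben and 44.5 ± 8.62 in control cultures (SD, n = 3 each), a ratio of 6.84. The log2 difference was 2.38 ± 0.19 (SE from the fit over all probe sets), and 2.22% of tested probe sets had a larger difference in either direction. Without isoxaben replicate 1 it was 2.22 ± 0.19. The spread between arrays was wide relative to the mean, at 26.4% in isoxaben and 19.4% in control cultures (coefficient of variation).

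EXLA2 (AT4G38400), an expansin-like A protein, was lower on every isoxaben array. Its signal was 128.3, 132.3 and 161.9 on isoxaben arrays 1 to 3, against 197.3, 320.1 and 316.5 on control arrays 1 to 3. Control replicate 1 lay between the isoxaben arrays and the other two controls. The groups did not overlap, with the lowest control signal at 1.22 times the highest isoxaben signal. The means were 141 ± 18.4 in isoxaben and 278 ± 69.9 in control cultures (SD, n = 3 each), so the control mean was 1.97 times the isoxaben mean. The log2 difference was -0.88 ± 0.18 (SE), and 25.2% of tested probe sets had a larger difference in either direction. Without isoxaben replicate 1 it was -0.83 ± 0.21, and without control replicate 1 it was -1.10 ± 0.12.

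EXLA1 (AT3G45970), the second expansin-like A gene of the 3, was also lower on every isoxaben array, by a smaller amount. Its signal was 1885.6, 2094.1 and 2504.5 on isoxaben arrays 1 to 3, against 2808.0, 2688.0 and 2584.6 on control arrays 1 to 3. Isoxaben replicate 3 and control replicate 3 nearly met: the lowest control signal was 1.03 times the highest isoxaben signal. The means were 2161 ± 315 in isoxaben and 2694 ± 112 in control cultures (SD, n = 3 each), so the control mean was 1.25 times the isoxaben mean. The log2 difference was -0.32 ± 0.11 (SE), and 62.3% of tested probe sets had a larger one in either direction. Without isoxaben replicate 1 it was -0.23 ± 0.11. These signals lay in the upper part of the range, at 58.5% to 78.2% of the highest signal of any probe set on the same array.

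**Figure D1:**
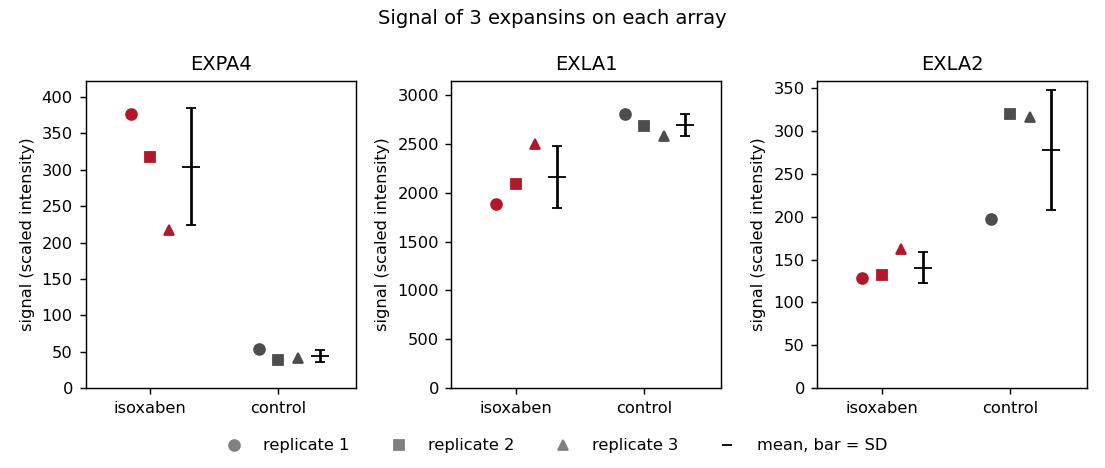
Signal intensity (linear axis from 0, a scale for each gene) of EXPA4, EXLA1 and EXLA2 on the 3 isoxaben and the 3 control arrays, with each array as a point and the mean with its SD as a bar. The EXPA4 points run from 218.0 to 376.8 with isoxaben and from 38.2 to 54.3 in control cultures, while the EXLA1 groups nearly meet, at 2504.5 for the highest isoxaben array and 2584.6 for the lowest control array.

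The absence of overlap between groups was common on these arrays: 32.8% of tested probe sets had every isoxaben array above every control array, as EXPA4 did, and 30.4% had every isoxaben array below, as EXLA1 and EXLA2 did. Isoxaben replicate 3 was the isoxaben array nearest to the control mean for all 3 genes, with the lowest EXPA4 and the highest EXLA1 and EXLA2 signal of its group. Over all 8626 probe sets without overlap, that array was the nearest in 29.9%, isoxaben replicate 1 in 39.6% and replicate 2 in 30.5%. On the control side, replicate 1 was nearest to the isoxaben mean for EXPA4 and EXLA2, and replicate 3 for EXLA1. Over the same probe sets, control replicate 1 was the nearest in 44.4%.

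Set by set, the 3 genes differed in how even their differences were. The first title set holds only isoxaben replicate 1 and control replicate 1, both remarked on above. EXPA4 had a log2 difference of 2.48 in the first title set (1 array against 1) and 2.33 in the second (2 against 2). For EXLA2 it was -0.56 in the first set and -1.04 in the second. EXLA1 went the other way in size, with -0.57 in the first set and -0.20 in the second. By replicate number, the EXLA1 difference was -0.57, -0.36 and -0.05 for numbers 1 to 3, so the third pair showed almost none of it. The same 3 differences were -0.56, -1.18 and -0.90 for EXLA2 and 2.48, 2.62 and 2.04 for EXPA4. Whether same-numbered arrays of the second set were paired is not known, so the values for numbers 2 and 3 rest on the numbering.

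**Figure D2:**
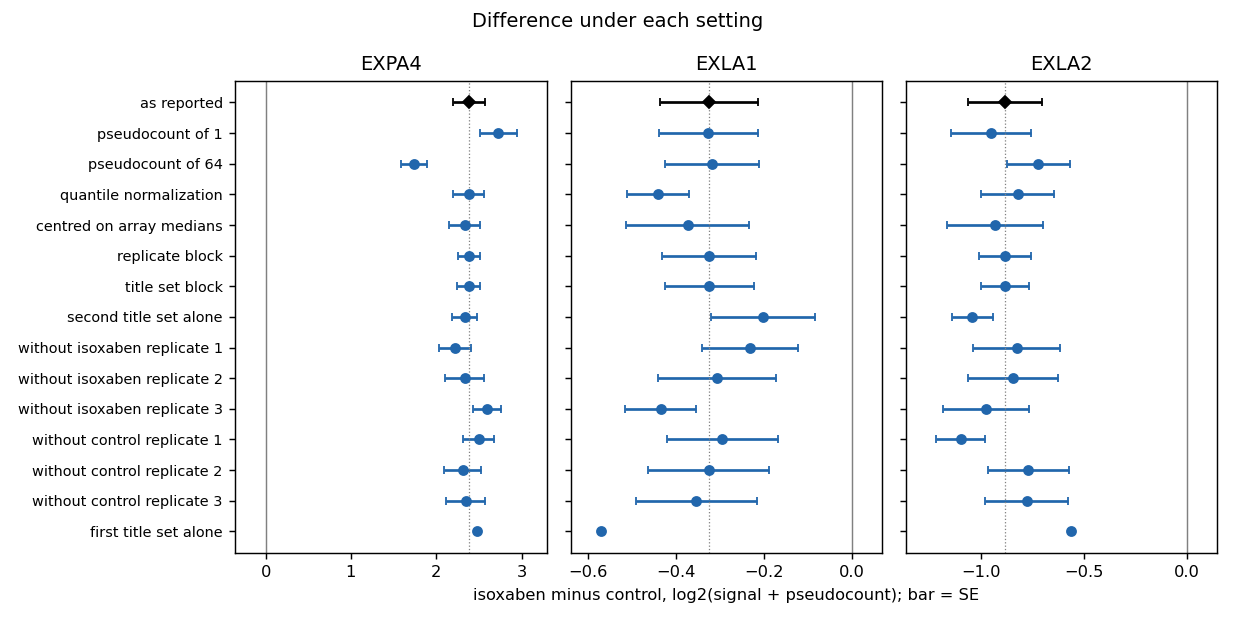
Isoxaben minus control difference of each gene (horizontal axis, log2 of signal plus pseudocount, a scale for each gene) under the reported setting (black diamond) and each alternative (blue points), with bars for the SE and no bar where 1 array stands against 1. Every point keeps the sign of the reported value, which the absence of overlap between groups fixed under all settings but the other scalings. The EXLA1 points run from -0.57 to -0.20.

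The rest of the superfamily was listed whole, to set the 3 genes among their relatives. Of 36 expansins on the list, 18 had a probe set of 1 gene, 4 shared their probe set with another expansin, and 14 were unnamed here. Only 6 of the 18 passed the filter on dim probe sets, which lay at a mean signal of 22.1: EXPA4, EXLA1, EXLA2, EXLA3, EXPA15 and EXPB3. Among the 3 of them outside the chosen genes, none was called higher or lower (limma, Benjamini-Hochberg adjusted p under 0.05), and none had an unadjusted p under 0.05. Of all tested probe sets, 29.4% were called higher and 27.2% lower.

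EXLA3 (AT3G45960) is the third gene of the expansin-like A family and an adjacent protein-coding neighbour of EXLA1 in the TAIR10.1 gene table. Its signal was 341.7, 396.6 and 416.3 on isoxaben arrays 1 to 3, against 319.8, 489.3 and 440.3 on control arrays 1 to 3. The groups overlapped, because control replicate 1 was the lowest of the 6 arrays. The log2 difference was -0.09 ± 0.16 (SE; limma adjusted p = 0.641), with a 95% interval of -0.44 to 0.26. The differences between EXLA3 and the other expansin-like A genes were not tested. It was -0.27 without control replicate 1 (limma adjusted p = 0.0634) and 0.030 without control replicate 2. Without isoxaben replicate 1 it was -0.01. Whether RNA of EXLA1 binds the probes of EXLA3, or the reverse, was not tested.

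EXPA15, an alpha-expansin, and EXPB3, a beta-expansin, were near the filter. EXPA15 had signals of 34.5, 42.2 and 29.0 on isoxaben arrays, against 57.8, 23.9 and 31.0 on control arrays. Control replicate 1 was the highest and control replicate 2 the lowest of all 6, so the control group enclosed the isoxaben group. EXPA15 differed by -0.02 ± 0.23 on the log2 scale (SE; limma adjusted p = 0.942; 95% interval -0.53 to 0.48), and by 0.23 without control replicate 1 (limma adjusted p = 0.209). EXPB3 had signals of 42.9, 32.1 and 24.2 on isoxaben arrays, against 37.4, 22.2 and 18.5 on control arrays. Its log2 difference was 0.23 ± 0.21 (SE; limma adjusted p = 0.378; 95% interval -0.24 to 0.70), and it was 0.42 without control replicate 1 (limma adjusted p = 0.0572). Without isoxaben replicate 1, EXPB3 differed by 0.091 (limma adjusted p = 0.774) and EXPA15 by -0.015 (limma adjusted p = 0.968).

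The other 12 expansins with a probe set of 1 gene lay below the filter, with signals of 0.8 to 36.6 on single arrays. Fitted without the filter, 2 of the 15 expansins outside the chosen genes were called, both higher and both below the filter. Of all 22746 probe sets in that fit 34.5% were called in either direction, 4125 higher and 3715 lower. With the filter, 4011 of 13648 were called higher and 3715 lower, so the 9098 dim probe sets added few calls on net. The called share of probe sets below the filter alone was not computed, so 2 of 15 has no like background here. With no filter and the replicate number as a block, 1 of the 15 was called, EXPA20. The share of all probe sets called in that fit is not given here, so this count has no background beside it. EXPA20 had signals of 26.6, 31.7 and 9.1 on isoxaben arrays, against 7.5, 6.8 and 3.9 on control arrays. Isoxaben replicates 1 and 2 stood well above the rest, and replicate 3 was close to the controls without overlapping them. Its log2 difference was 0.75 ± 0.24 (SE; limma adjusted p = 0.0448), a call that leaving out isoxaben replicate 3 kept and leaving out any other array ended (limma adjusted p from 0.0671 to 0.137 in those 5 fits). Without isoxaben replicate 1 it was 0.65.

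EXPA18, known from root hairs, had signals of 10.2, 7.5 and 7.0 on isoxaben arrays, against 3.2, 5.0 and 2.6 on control arrays. The groups did not overlap, though all 6 values lay under the filter signal. The share of probe sets below the filter without overlap was not computed. The absence of overlap for EXPA18, EXPA20 and EXLB1 therefore has no like background here. On the log2 scale EXPA18 differed by 0.31 ± 0.09 (SE; limma without filter, adjusted p = 0.0369), and that call held with control replicate 2 left out but with no other array left out (limma adjusted p from 0.0542 to 0.136 in those 5 fits). It was 0.25 without isoxaben replicate 1. The call also ended with the replicate number as a block (limma adjusted p = 0.0777). EXPA7, the other root hair expansin, had signals of 14.8 to 18.4 on isoxaben arrays, against 11.0 to 17.9 on control arrays, so its groups overlapped.

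EXLB1, the single expansin-like B gene on the list, had signals of 8.3, 13.3 and 8.8 on isoxaben arrays, against 36.6, 14.7 and 20.3 on control arrays. Every isoxaben value lay below every control value, and control replicate 1 was far above the others. The log2 difference was -0.58 ± 0.21 (SE; limma without filter, adjusted p = 0.0770). It did not pass, and it was -0.36 without control replicate 1 and -0.53 without isoxaben replicate 1. Without control replicate 2 it was -0.75 and passed (limma adjusted p = 0.0362).

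EXPA8, EXPA9, EXPA16, EXPA21, EXPA24, EXPB1, EXPB2 and EXPB5 had log2 differences between -0.18 and 0.20, and none passed without the filter (limma adjusted p from 0.208 to 0.907). The groups overlapped for each of these 8 genes. EXPA22 and EXP26 share 1 probe set, with signals of 0.3 to 5.9 on isoxaben arrays and 0.9 to 7.4 on control arrays. EXPA23 and EXPA25 share another, with 1.9 to 6.5 on isoxaben arrays and 4.8 to 8.6 on control arrays. Both groups overlapped on each of these shared probe sets.

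**Figure D3:**
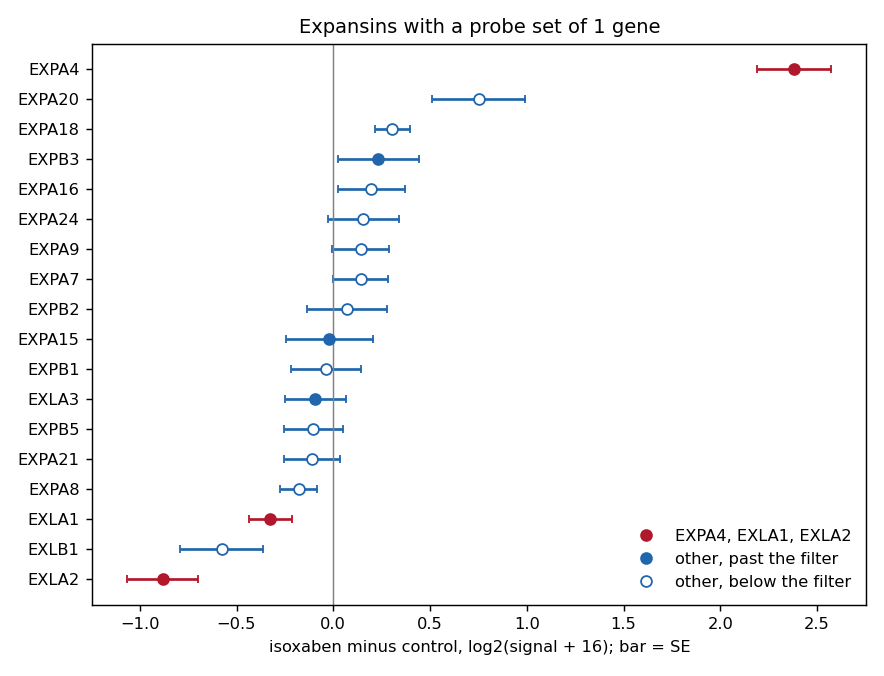
Isoxaben minus control difference (horizontal axis, log2(signal + 16), bars are the SE) for the 18 expansins with a probe set of 1 gene, ordered by value, with EXPA4, EXLA1 and EXLA2 in red and hollow points for genes below the filter. On this scale EXPA4 is at 2.38, EXPA20 at 0.75 and EXLA2 at -0.88, an order that the pseudocount shapes, since the ratio of mean signals (isoxaben over control) was 3.70 for EXPA20, 0.507 for EXLA2, 0.425 for EXLB1 and 0.407 for EXPA8.

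Genes with the most similar profile were then sought among 1046 named genes past the filter, as those whose 6 log2 values, each centred on its own mean, differed least from those of the expansin. The measure is the root mean square difference over the 6 arrays, which fall into the same groups for every gene. It is a description with no test. For EXPA4, 51 genes lay within 0.5 log2 units and none within 0.2. The nearest was AMY1, a secreted alpha-amylase, at 0.24. Its signal was 336 ± 3.14 in isoxaben and 45.5 ± 9.04 in control cultures (SD, n = 3 each). The next 4, at 0.25 to 0.27, were psaB and psbH, plastid genes of photosystem I and II, TAPX, the thylakoid ascorbate peroxidase, and ATPC1, the gamma subunit of the chloroplast ATP synthase. All 5 had smaller differences among their isoxaben arrays relative to the mean than the 26.4% of EXPA4, and their log2 differences were 2.16 to 2.53. TAPX averaged 87.6 ± 1.54 in isoxaben and 4.47 ± 1.40 in control cultures (SD, n = 3 each), a control signal below the filter and below the pseudocount, so its log2 difference and its place among the 5 rest on the pseudocount of 16.

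For EXLA2, 39 genes lay within 0.2 log2 units. APG8H, an autophagy gene that the gene table also lists as ATG8I, was nearest at 0.10. Its signal was 365 ± 33.9 in isoxaben and 706 ± 141 in control cultures (SD, n = 3 each), a log2 difference of -0.91. WLIM2b, of the LIM proteins that bind actin, the cytochrome P450 CYP71B6, VPS60.2 and the tetraspanin TET9 followed at 0.10 to 0.12. Among them WLIM2b had a log2 difference of -0.72 and CYP71B6 one of -0.81, and like EXLA2 all 4 had the lowest control value on replicate 1. They were chosen for likeness to EXLA2 over these same arrays, so such likeness follows in part from the choice.

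For EXLA1, whose difference was the smallest of the 3, 120 genes lay within 0.2 log2 units and 698 of the 1046 within 0.5. SUFE2, which activates cysteine desulfurase for iron-sulfur cluster assembly, was nearest at 0.08, with a signal of 110 ± 11.1 in isoxaben and 131 ± 5.24 in control cultures (SD, n = 3 each). PGL34, a plastoglobule protein, MED31, a subunit of the Mediator complex, the DNA-binding factor GT-1 and ATG8B, an autophagy gene, followed at 0.09 to 0.11. Their log2 differences were -0.20 to -0.40.

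**Figure D4:**
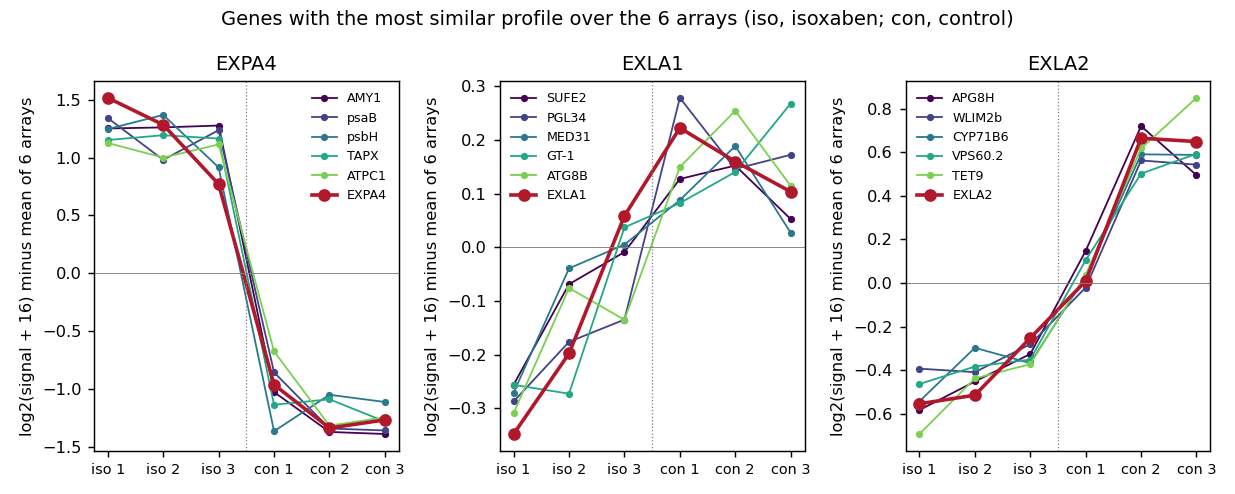
Values of log2(signal + 16) minus the mean of the 6 arrays (vertical axis, a scale for each panel) on isoxaben arrays 1 to 3 and control arrays 1 to 3, for each expansin (thick red) and the 5 named genes with the smallest root mean square difference from it. The EXLA2 panel shows control replicate 1 between the isoxaben arrays and the other controls for all 6 genes drawn. Such likeness follows in part from how the 5 named genes were chosen.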

How the data were processed

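Affymetrix ATH1 arrays, 6 in all, were deposited as linear signal intensity, 1 value per probe set for 22810 probe sets and no detection calls. How the authors computed the signal is not stated in the sources used. Before deposit the intensities had been scaled, with a mean of 100.006 to 100.008 on every array after trimming 2% at each end. Per the labels' protocols, total RNA was primed with oligo-dT and labelled as biotinylated cRNA. The number of arrays limits the precision.

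After removal of 64 control probe sets, signals were transformed to log2(signal + 16), and probe sets under the 40th percentile of mean log2 value were dropped, which left 13648. The pseudocount understates the differences of dim genes. Isoxaben was compared with control by limma 3.58.1 in R 4.3.3 (lmFit, eBayes with an intensity trend, two-sided, no covariate), with Benjamini-Hochberg adjustment over all tested probe sets and a threshold of 0.05. The fit was run on simulated data with few changed probe sets, all bright, a single common spread and independent arrays. The real arrays differ in each of these, so that run does not measure error rates here.

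Gene names came from the platform annotation, updated through gene identifiers with the RefSeq table of TAIR10.1. The genes, lists and tests were chosen with earlier results of these data known. Named genes were the 3 chosen expansins, every other expansin with a probe set of 1 gene, and the 5 genes of nearest profile for each. A list for wall acidification (11 plasma membrane proton pumps, 80 SAUR genes and 9 PP2C.D phosphatases, 5 of them so named in RefSeq) had no member with a probe set that could be named here, so its planned counts are not given. Deviations from the group mean correlated between same-numbered arrays (0.207, 0.110 and 0.128 over probe sets). Isoxaben 2 with control 3 (0.118) and isoxaben 3 with control 2 (0.101) correlated about as much, so within the second title set the number is not told apart from the set. All 3 same-numbered pairs lay above 0.1, so the replicate number, taken from the titles where they give one, was also fitted as a block. Exactly equal values made up at most 1.44% of probe sets in any array pair. The alternatives were other pseudocounts, scalings, filters, a single prior variance, blocks for replicate number or title set, the first or second title set by itself, and each array left out.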

Additional observations from a re-analysis of the deposited data

How the results depend on the processing

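The differences of EXPA4, EXLA1 and EXLA2 kept their sign under all 14 alternatives run for each. Since their groups did not overlap, only the other scalings could have changed the sign. Under the rest of the alternatives it was fixed in advance. For EXPA4 the difference was 2.73 with a pseudocount of 1 and 1.74 with 64, by construction of the scale. In the first title set alone (isoxaben replicate 1 against control replicate 1), that of EXLA1 was -0.57 and that of EXLA2 -0.56. The cause was not tested. With 1 array left out, EXPA4 ranged from 2.22 to 2.59, EXLA1 from -0.23 to -0.44 and EXLA2 from -0.77 to -1.10. These counts were run under 16 alternatives. The count of other expansins called higher was 0 in each except no filter, which gave 2 because it tests 15 in place of 3. None was called lower in those 16. Fits that combine no filter with a block or a left-out array are not among them and are given below. The difference of EXPA15 turned to 0.24 in the second title set, and ranged from -0.21 to 0.23 with 1 array left out. For EXLA3 that range was -0.27 to 0.030, the highest without control replicate 2. With the replicate block, 4250 probe sets were called higher and 3913 lower, against 4011 and 3715 without it, and EXLA3, EXPA15 and EXPB3 stayed uncalled. With the replicate block and no filter, EXPA18 was no longer called (limma adjusted p = 0.0777), EXPA20 was (0.0256) and EXLB1 was not (0.12). The fits with no filter and either the block or 1 array left out, for EXPA18, EXPA20 and EXLB1, were chosen after seeing the data. There the EXLB1 call was gained without control replicate 2 (limma adjusted p = 0.0362). Signals under the filter have no detection call, so their differences may lie within the background of the array.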

Other observations

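Control replicate 1 gave the highest control signal for 9 of the 12 expansins below the filter. Over all 9098 probe sets below the filter, it was the highest control in 63.6%, against 13.7% and 22.7% for control replicates 2 and 3. Over the 13648 probe sets past the filter the share was 48.6%.

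The 5 nearest annotated protein-coding genes on each side of EXPA4, EXLA1 and EXLA2 in the TAIR10.1 gene table were also looked up. Around EXPA4, 6 of 10 neighbours were tested (limma, Benjamini-Hochberg adjusted p under 0.05). The 2 called higher were AT2G39670 (log2 difference 1.10) and the Rubisco activase gene RCA (0.82). The 1 called lower was the receptor-like cytoplasmic kinase gene BIK1 (-0.44). Around EXLA1, 2 of 10 were tested, with AT3G46020 called higher (0.81) and EXLA3 not called. Around EXLA2, 4 of 10 were tested, with AT4G38370 (0.78) and AT4G38380 (0.48) called higher and none lower. These neighbours were named after their values were seen. Of all tested probe sets 29.4% were called higher and 27.2% lower.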
